A study of Mus musculus with 50 samples.

Results

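The tissue-specific basic helix-loop-helix (bHLH) factors described here are 44 listed mouse genes, of which 32 are in the RNA-seq table of 18055 genes and were taken as the members. They fall into 6 proneural and neuronal genes (*Neurog1*, *Neurog3*, *Neurod1*, *Neurod6*, *Atoh1*, *Atoh8*), 4 genes of the Olig and Bhlhe22/23 group, 8 *Hes* and *Hey* genes, 6 pancreatic, neural and blood genes (*Ptf1a*, *Nhlh1*, *Nhlh2*, *Tal1*, *Tal2*, *Lyl1*), 5 mesodermal genes (*Hand1*, *Hand2*, *Twist1*, *Msc*, *Mesp2*) and 3 myogenic genes (*Myod1*, *Myf5*, *Myog*). The 12 listed genes outside the table (*Neurog2*, *Neurod2*, *Neurod4*, *Atoh7*, *Olig2*, *Hes7*, *Ferd3l*, *Twist2*, *Tcf21*, *Scx*, *Mesp1*, *Myf6*) were looked at for peaks only.

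All cells were mouse embryonic stem cells (ESCs) of the E14 line, grown in serum with 2i and LIF. WT cells were compared with *Ezh2* KO ESCs, in which the whole *Ezh2* gene was deleted, and with *Ezh1/2* dKO ESCs, in which *Ezh1* and *Ezh2* were both deleted. The *Ezh2* Y726D and *Ezh2* R685C ESCs carry a point mutation of *Ezh2* in an *Ezh1* KO background, so that *Ezh2* KO is the only mutant that keeps *Ezh1*. The labels of the *Ezh2* Y726D SUZ12 and H3K27me3 samples name only the mutation, and they were taken as the same line. Mutants were obtained as edited clones, and the number of clones behind each library is not given in the sources used here. RNA-seq had 2 libraries for WT and for each mutant except *Ezh2* R685C. ChIP-seq peak lists were used for SUZ12 and H3K27me3 in all 5 lines and for H3K27ac in the 4 mutants. H3K27me2 lists covered every line except *Ezh2* R685C. HA lists came from *Ezh1/2* dKO cells transfected with a vector for HA-tagged human EZH1 and selected with puromycin. A control HA list came from untransfected *Ezh1/2* dKO cells. The series holds a WT H3K27ac sample, but no WT H3K27ac list was used. Each list came from 1 library per line and target and so had no replicate check.

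bHLH factors bind E-boxes (CANNTG) as dimers. Most tissue-specific members pair with a broadly expressed E protein, Id proteins sequester E proteins, and Hes and Hey proteins are repressors that often lie downstream of Notch. Proneural, myogenic and other lineage bHLH genes are typically silent in ESCs and are well known targets of the Polycomb repressive complex PRC2, whose core subunit SUZ12 marks the bound complex and whose catalytic subunits EZH1 and EZH2 methylate H3K27. H3K27ac, on the same residue, marks active promoters and enhancers.

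The upstream 250 bases of 6 members, read from the RefSeq promoter table and located in mm9, are printed to show the CpG content at start sites that differed between lines, with CG dinucleotides in capitals. *Hes6*, *Neurog3*, *Olig3* and *Lyl1* had the peak states that differed most between the lines among members with a sequence, and *Neurog1* and *Atoh1* were added after their mRNA values were seen.
Neurog1, chr13:56353542-56353791, minus strand: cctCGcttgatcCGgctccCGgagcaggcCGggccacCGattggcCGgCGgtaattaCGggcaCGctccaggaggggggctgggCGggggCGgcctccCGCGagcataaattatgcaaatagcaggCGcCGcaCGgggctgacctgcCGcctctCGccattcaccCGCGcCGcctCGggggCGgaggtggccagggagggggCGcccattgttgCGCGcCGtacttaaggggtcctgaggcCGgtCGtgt
Atoh1, chr6:64678869-64679118, plus strand: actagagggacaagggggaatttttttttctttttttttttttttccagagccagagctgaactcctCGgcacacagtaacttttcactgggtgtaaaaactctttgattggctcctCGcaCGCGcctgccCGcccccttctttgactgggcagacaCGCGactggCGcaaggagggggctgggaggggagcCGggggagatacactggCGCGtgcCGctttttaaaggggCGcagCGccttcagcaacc
Neurog3, chr10:61595588-61595837, plus strand: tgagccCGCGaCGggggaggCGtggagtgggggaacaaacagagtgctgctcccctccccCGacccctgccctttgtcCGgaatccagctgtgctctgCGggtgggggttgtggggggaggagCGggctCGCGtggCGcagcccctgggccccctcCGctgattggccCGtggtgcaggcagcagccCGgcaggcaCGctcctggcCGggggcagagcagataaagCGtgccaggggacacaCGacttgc
Hes6, chr1:93310616-93310865, minus strand: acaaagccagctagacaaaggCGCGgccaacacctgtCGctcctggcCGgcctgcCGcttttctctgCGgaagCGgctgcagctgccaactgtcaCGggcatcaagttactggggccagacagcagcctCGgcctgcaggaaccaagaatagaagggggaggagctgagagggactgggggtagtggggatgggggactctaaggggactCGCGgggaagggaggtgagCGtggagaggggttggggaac
Olig3, chr10:19076095-19076344, plus strand: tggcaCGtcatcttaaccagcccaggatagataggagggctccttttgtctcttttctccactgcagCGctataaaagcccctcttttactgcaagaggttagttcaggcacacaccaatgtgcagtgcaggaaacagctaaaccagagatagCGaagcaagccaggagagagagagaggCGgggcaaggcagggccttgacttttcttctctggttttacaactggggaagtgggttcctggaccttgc
Lyl1, chr8:87225106-87225355, plus strand: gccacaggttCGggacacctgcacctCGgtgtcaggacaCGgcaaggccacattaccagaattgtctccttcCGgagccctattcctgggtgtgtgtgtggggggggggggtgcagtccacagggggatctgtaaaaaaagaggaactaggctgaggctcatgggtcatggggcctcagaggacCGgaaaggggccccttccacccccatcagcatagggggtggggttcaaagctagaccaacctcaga
These stretches held 29 CpGs for *Neurog1*, 18 for *Neurog3*, 14 for *Atoh1*, 12 for *Hes6* and 4 for *Olig3*. The whole *Neurog1* stretch lay inside the SUZ12 peaks of WT, *Ezh2* KO, *Ezh2* Y726D and *Ezh2* R685C, that of *Atoh1* inside those of WT and *Ezh2* R685C, and that of *Olig3* inside none. Over the 300 bases of the table's windows, which add 50 bases after the start, the 22 members with an entry had a median of 16.5 CpGs, beside 14 for the 14861 protein-coding genes of the mm9 annotation with an entry and 7.0 for all 27025 genes of the table. The 17 members with a WT SUZ12 peak had a median of 19 CpGs, and the 5 without one had 9.0. The E-box CANNTG, which reads the same on both strands, occurred in 81.8% of the member windows and in 72.1% of all windows. These are descriptions of letters and not of binding.

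RNA-seq libraries held 3604123 to 5181553 reads on genes. *Ezh2* mRNA was at 0.824 to 1.78 normalized counts in the *Ezh2* KO and *Ezh1/2* dKO libraries and at 422 to 613 in WT and *Ezh2* Y726D. *Ezh1* was at 14 to 24.1 in *Ezh1/2* dKO and *Ezh2* Y726D and at 227 to 378 in WT and *Ezh2* KO, in keeping with the labelled genotypes. The pluripotency markers summed to between 18178 and 21469 normalized counts in every library, and 1 of the 16, *Dppa3*, was called against WT, higher in *Ezh1/2* dKO (1.32, adjusted p = 0.0775 by limma) and lower in *Ezh2* Y726D (-2.66, adjusted p = 0.0113). A normalized count is a read count divided by the library's size factor. Because these are bulk samples, fewer cells that express a gene and less mRNA per cell cannot be told apart. Nothing in the labels says that the 2 libraries of a line came from separate cultures, so the p-values measure the spread between these libraries only.

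Most of the factors were hardly transcribed in WT ESCs. Per kilobase of exon, only *Hes6* (86.0 normalized counts per kb), *Hes1* (66.5) and *Msc* (58.7) stood out in WT. *Neurog3* (12.9), *Mesp2* (8.02), *Neurod1* (7.10) and *Hey1* (4.14) followed, and the other 25 members were below these levels. Of the 32 members, 16 and 21 had at least 1 read in the 2 WT libraries, 14 and 16 in *Ezh2* KO, 26 and 27 in *Ezh1/2* dKO, and 24 and 25 in *Ezh2* Y726D. The share of all genes of the table with a read was 86.7% and 90.6% in WT, 86.7% and 88.5% in *Ezh2* KO, 94.4% and 94.7% in *Ezh1/2* dKO and 90.8% and 89.2% in *Ezh2* Y726D. More members were therefore seen in the *Ezh1/2* dKO and *Ezh2* Y726D libraries, and more genes of any kind were seen in *Ezh1/2* dKO.

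**Figure D1:**
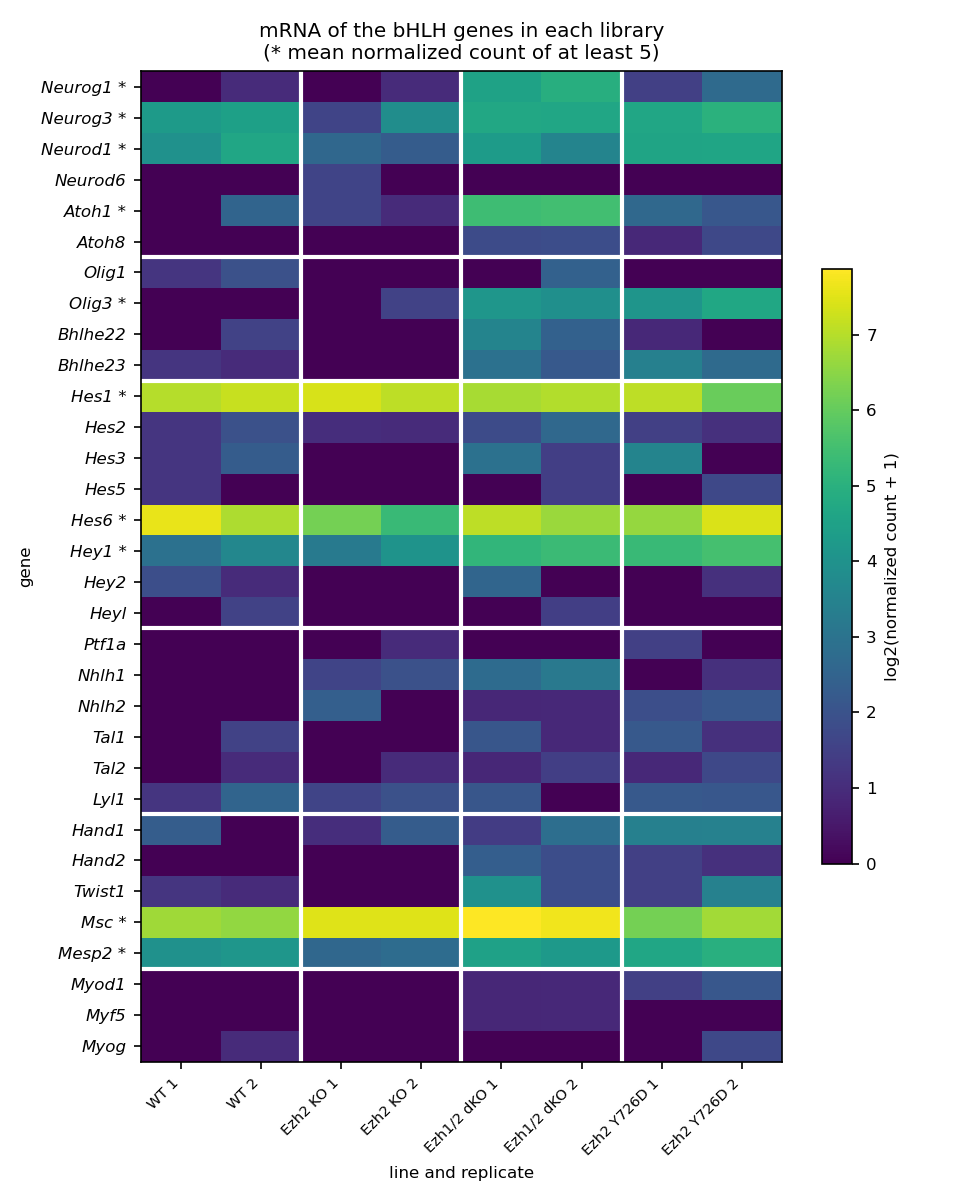
Heatmap of log2(normalized count + 1) for the 32 bHLH genes (rows, by role) in the 8 RNA-seq libraries (columns). *Hes1*, *Hes6* and *Msc* are bright in every column, and *Neurog1*, *Atoh1* and *Olig3* are dark in WT and *Ezh2* KO and brighter in *Ezh1/2* dKO.

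A mean of at least 5 normalized counts was reached by 10 of the 32 members, which were tested with limma in 1 fit over all 13872 genes of that level. *Neurog1*, *Atoh1* and *Olig3* passed this filter through the lines in which they were high, so the counts that follow are descriptions and not support for a group effect. Calls needed a Benjamini-Hochberg adjusted p below 0.1 together with a change of 1 or more in either direction on the scale of log2(normalized count + 1), which understates changes of low genes. Between *Ezh1/2* dKO and WT, 5 of the 10 were called higher and none lower, while 503 of all genes tested (3.63%) were called higher and 54 (0.389%) lower, 4.02% in all. Between *Ezh2* Y726D and WT, 2 of the 10 were called higher and none lower, beside 230 (1.66%) and 147 (1.06%) of all genes, 2.72% in all. Between *Ezh2* KO and WT, limma and edgeR called 0 of the 10 and DESeq2 called 1 (*Hes6*, lower), beside 56 of all genes (0.404%; 0.0937% higher and 0.310% lower) in the limma fit. At an unadjusted p under 0.05, 1 of the 10 was higher and 4 were lower in *Ezh2* KO than in WT, beside 8.83% of all genes in either direction. The median log2 fold change of the 10 was 0.71 in *Ezh1/2* dKO, 0.60 in *Ezh2* Y726D and 0.02 in *Ezh2* KO against WT, and that of all genes was between -0.01 and 0.01 in each. The *Ezh2* KO median was unstable, at -0.80 without WT replicate 1, 0.37 without WT replicate 2, -0.44 by edgeR and -0.55 by DESeq2, and that of *Ezh2* Y726D was 0.24 without WT replicate 1. These 3 comparisons share the WT libraries.

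Among mutants, *Ezh1/2* dKO had 3 of the 10 called higher than *Ezh2* KO (*Neurog1*, *Atoh1* and *Olig3*) and none lower, beside 3.52% of all genes higher and 0.0577% lower, 3.58% in all. *Ezh2* Y726D had 4 called higher than *Ezh2* KO (*Neurod1*, *Olig3*, *Hey1* and *Mesp2*) and none lower, beside 2.31% higher and 1.21% lower, 3.53% in all. Against *Ezh1/2* dKO, *Ezh2* Y726D had 1 called lower (*Msc*) and none higher, beside 1.49% lower and 0.187% higher, 1.68% in all. Both libraries of *Ezh1/2* dKO lay above both of *Ezh2* KO for 9 of the 10 members (26.6% of all genes) and those of *Ezh2* Y726D for 8 (22.2%). The same held for 7 in *Ezh1/2* dKO against WT (28.0%), 5 in *Ezh2* Y726D against WT (19.0%) and 1 in *Ezh2* KO against WT (18.0%), where 4 lay below (17.6%). The calls against WT in *Ezh1/2* dKO rest on both of its libraries: without replicate 1 no member and 9 genes of the whole table were called, and without replicate 2 no member and 3 genes.

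Among the proneural genes, *Neurog1* (chr13:56351866-56353524, minus strand, a single exon), which drives sensory neuron formation, had 0 and 0.963 normalized counts in WT and 0 and 0.968 in *Ezh2* KO. It reached 22.3 and 29.3 in *Ezh1/2* dKO and 1.78 and 5.59 in *Ezh2* Y726D. The *Ezh1/2* dKO libraries lay far above all others, and *Neurog1* was higher than in WT by a log2 fold change of 4.24 (SE 0.77, adjusted p = 0.0297 by limma). Against *Ezh2* KO the difference was 4.24 (adjusted p = 0.0282), a call lost without *Ezh2* KO replicate 1 or either *Ezh1/2* dKO library (adjusted p up to 0.305 over the alternatives). In reads, 60 in *Ezh1/2* dKO stood against 1 in WT, a ratio of 45.9 with a 95% counting interval from 7.92 to 1841. In *Ezh2* Y726D both libraries lay above both WT libraries, but the difference of 1.61 (SE 0.77) had an adjusted p of 0.386.

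*Atoh1* (chr6:64679140-64681227, plus strand, a single exon), a proneural gene of hair cells, cerebellar granule cells and secretory gut cells, had a similar profile. It had 0 and 4.81 normalized counts in WT, 2.09 and 0.968 in *Ezh2* KO, 42.0 and 43.5 in *Ezh1/2* dKO and 5.35 and 3.36 in *Ezh2* Y726D. The *Ezh1/2* dKO values did not overlap those of any other line, and the gene was higher than in WT by 4.18 (SE 0.84, adjusted p = 0.0391 by limma) and higher than in *Ezh2* KO by 4.15 (adjusted p = 0.0399). The latter call was lost without any 1 of the 4 libraries concerned (adjusted p up to 0.326 over the alternatives). The direct difference between *Ezh2* Y726D and *Ezh1/2* dKO was -3.06 (SE 0.84, adjusted p = 0.144) for *Atoh1* and -2.63 (SE 0.77, adjusted p = 0.172) for *Neurog1*, neither called by limma. edgeR and DESeq2 called this difference for *Atoh1*, and a pseudocount of 5 called it for both genes.

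*Neurod1* and *Neurog3*, which act in neurons and in the endocrine pancreas, were read in every library, and their *Ezh2* KO values lay below WT without passing the test. *Neurod1* had 14.7 and 24.1 normalized counts in WT, 5.23 and 3.87 in *Ezh2* KO, 19 and 10.7 in *Ezh1/2* dKO and 23.2 and 23.5 in *Ezh2* Y726D. Both *Ezh2* KO libraries lay below all others. The difference between *Ezh2* KO and WT was -1.85 (SE 0.51, adjusted p = 0.266 by limma), whereas *Ezh2* Y726D was higher than *Ezh2* KO by 2.14 (SE 0.51, adjusted p = 0.0732). This call was lost without any 1 of the 4 libraries concerned (adjusted p up to 0.301 over the alternatives). *Neurog3* had 18.7 and 21.2 in WT, 2.09 and 13.5 in *Ezh2* KO, 25.6 and 24 in *Ezh1/2* dKO and 24.1 and 31.3 in *Ezh2* Y726D. It was not called in any of the 6 comparisons, and its 2 *Ezh2* KO libraries were far apart. Both genes overlap other annotated genes (*Cerkl* and a predicted gene for *Neurod1*, 2010107G23Rik for *Neurog3*). The reads were counted without strand, so reads of the shared stretches cannot be assigned with certainty. Whether the counts hold or lack such reads was not tested. The other 2 proneural members were near 0: *Neurod6* had reads in 1 library only, and *Atoh8* had none in WT and *Ezh2* KO and between 0.892 and 2.66 normalized counts in the other 4 libraries.

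In the Olig and Bhlhe22/23 group, *Olig3* (chr10:19076366-19078412, plus strand, a single exon), a factor of dorsal neural progenitors, had no read in either WT library. It had 0 and 1.94 normalized counts in *Ezh2* KO, 16.5 and 14.2 in *Ezh1/2* dKO and 16.0 and 24.6 in *Ezh2* Y726D. *Ezh1/2* dKO and *Ezh2* Y726D overlapped each other and lay above the other lines. Against a floor of 3 reads over the WT libraries, *Olig3* was at least 9.17-fold higher in *Ezh1/2* dKO and at least 11.8-fold higher in *Ezh2* Y726D, with adjusted p-values of 0.0282 and 0.0249 by limma. It was also higher than in *Ezh2* KO, by 3.25 (SE 0.71, adjusted p = 0.0524) in *Ezh1/2* dKO and by 3.61 (SE 0.71, adjusted p = 0.0409) in *Ezh2* Y726D. Without *Ezh2* KO replicate 1 both of these calls against *Ezh2* KO were lost, as was that in *Ezh1/2* dKO without either of its libraries and that in *Ezh2* Y726D without its replicate 2 (adjusted p up to 0.381 and 0.197 over the alternatives). The call against WT in *Ezh2* Y726D held when each library was left out in turn. *Bhlhe23*, an interneuron and retinal factor, was untested, with 1.33 and 0.963 normalized counts in WT, 0 and 0 in *Ezh2* KO, 6.59 and 3.55 in *Ezh1/2* dKO and 9.81 and 5.59 in *Ezh2* Y726D. *Bhlhe22* had at most 1.93 outside *Ezh1/2* dKO and 10.7 and 4.44 within it, and *Olig1* was at or below 4.44 everywhere.

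**Figure D2:**
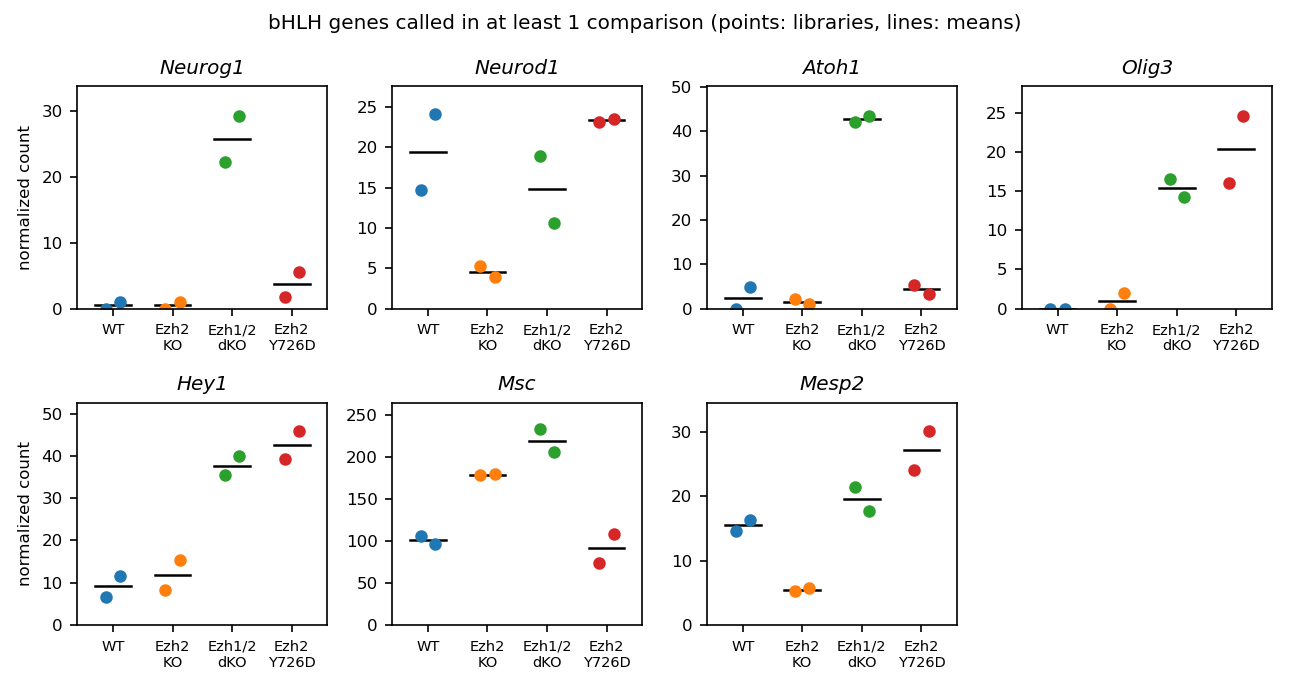
Normalized counts (y axis) by line (x axis) of the 7 bHLH genes called in at least 1 of the 6 comparisons, with 1 point per library and a line at the mean. *Neurog1* and *Atoh1* are high in *Ezh1/2* dKO alone, *Olig3* and *Hey1* in *Ezh1/2* dKO and *Ezh2* Y726D, and *Neurod1* and *Mesp2* are lowest in *Ezh2* KO.

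Of the Hes and Hey repressors, *Hey1*, a Notch and BMP target of the heart and vessels, was the one called. It had 6.67 and 11.6 normalized counts in WT, 8.36 and 15.5 in *Ezh2* KO, 35.4 and 40.0 in *Ezh1/2* dKO and 39.2 and 45.9 in *Ezh2* Y726D. Both lines without *Ezh1* lay above the other lines. *Hey1* was higher than in WT by 1.98 (SE 0.47, adjusted p = 0.0653 by limma) in *Ezh1/2* dKO and by 2.15 (SE 0.47, adjusted p = 0.0625) in *Ezh2* Y726D. Both calls were lost without WT replicate 1, and that in *Ezh2* Y726D also without *Ezh2* Y726D replicate 2. Against *Ezh2* KO the difference was 1.81 (adjusted p = 0.0942) in *Ezh2* Y726D, lost without any 1 of the 4 libraries concerned, and 1.64 (adjusted p = 0.132) in *Ezh1/2* dKO.

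*Hes1*, the oscillating Notch effector, was the best expressed of these genes by normalized count and was called in no comparison, with 125 and 145 in WT, 167 and 134 in *Ezh2* KO, 115 and 123 in *Ezh1/2* dKO and 136 and 66.0 in *Ezh2* Y726D. *Hes6*, which counteracts Hes1 and promotes neurogenesis, had 193 and 118 in WT, 73.2 and 39.7 in *Ezh2* KO, 134 and 102 in *Ezh1/2* dKO and 97.2 and 170 in *Ezh2* Y726D. Its *Ezh2* KO libraries lay below all others, at a difference from WT of -1.47 (SE 0.40, adjusted p = 0.26 by limma) that DESeq2 called and limma did not. *Hes2*, *Hes3*, *Hes5*, *Hey2* and *Heyl* stayed under the level for testing, and *Hes3*, *Hes5*, *Hey2* and *Heyl* had no read in either *Ezh2* KO library.

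Of the mesodermal members, *Msc* (musculin, chr1:14743427-14746047, minus strand), a repressor of myogenesis that also acts in lymphocytes, was the most abundant. It had 105 and 96.3 normalized counts in WT, 178 and 179 in *Ezh2* KO, 232 and 205 in *Ezh1/2* dKO and 74.0 and 109 in *Ezh2* Y726D. *Ezh2* Y726D overlapped WT, while both other mutants lay above it. *Msc* was higher in *Ezh1/2* dKO than in WT by 1.11 (SE 0.24, adjusted p = 0.0518 by limma), a call lost without WT replicate 2. It was lower in *Ezh2* Y726D than in *Ezh1/2* dKO by 1.28 on the log2 scale (SE 0.24, adjusted p = 0.053), a call lost without either *Ezh1/2* dKO library. In *Ezh2* KO the difference from WT was 0.82 (SE 0.24, adjusted p = 0.31). *Msc* overlaps the predicted gene *Gm9947* on the other strand, and reads of the shared stretch cannot be assigned with certainty.

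*Mesp2*, a somite segmentation gene, had 14.7 and 16.4 normalized counts in WT, 5.23 and 5.81 in *Ezh2* KO, 21.4 and 17.8 in *Ezh1/2* dKO and 24.1 and 30.2 in *Ezh2* Y726D. The 4 lines did not overlap one another. *Ezh2* Y726D was higher than *Ezh2* KO by 2.1 (SE 0.45, adjusted p = 0.0483 by limma), lost without either *Ezh2* KO library or *Ezh2* Y726D replicate 2, and *Ezh2* KO differed from WT by -1.34 (SE 0.45, adjusted p = 0.377). *Hand1*, a heart and trophoblast factor, had 4.0 and 0 in WT, 1.05 and 3.87 in *Ezh2* KO, 1.65 and 6.22 in *Ezh1/2* dKO and 9.81 and 10.1 in *Ezh2* Y726D. *Twist1*, a mesenchymal factor, had 14.8 and 2.66 in *Ezh1/2* dKO and 1.78 and 10.1 in *Ezh2* Y726D, against at most 1.33 in the other lines. *Hand2* had reads in all 4 libraries of *Ezh1/2* dKO and *Ezh2* Y726D (1.12 to 4.12) and in no other.

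The pancreatic, neural and blood members were all under the level for testing. *Lyl1*, a haematopoietic factor, had the highest mean of them, with 1.33 and 4.81 normalized counts in WT, 2.09 and 2.90 in *Ezh2* KO, 3.30 and 0 in *Ezh1/2* dKO and 3.57 and 3.36 in *Ezh2* Y726D. *Nhlh1*, a neuronal differentiation gene, had no read in WT, 2.09 and 2.90 in *Ezh2* KO, 5.77 and 7.99 in *Ezh1/2* dKO and 0 and 1.12 in *Ezh2* Y726D. Its 16 reads in *Ezh1/2* dKO put it at least 4.08-fold above the floor of 3 reads over the WT libraries. The myogenic genes were the most silent. *Myod1*, the skeletal muscle determination gene, had no read in WT and *Ezh2* KO, 0.824 and 0.888 in *Ezh1/2* dKO and 1.78 and 3.36 in *Ezh2* Y726D. *Myf5* and *Myog* had at most 3 reads each over all libraries.

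At the promoters, the WT lists placed most of these genes under Polycomb. Within 5 kb of the start site, 25 of the 32 members had a SUZ12 peak (78.1%), beside 13.6% of the 22367 protein-coding genes, and 25 had an H3K27me3 peak (78.1%), beside 17.6%. Both were present at 23. *Neurod1* and *Nhlh1* had SUZ12 without H3K27me3, and *Hes3* and *Mesp2* had H3K27me3 without SUZ12. *Neurod6*, *Hes1*, *Tal2*, *Myf5* and *Myog* had neither. In strength, measured as the -log10 p of the peak within the WT list, the strongest SUZ12 peaks were those of *Ptf1a* (154), *Neurog1* (134), *Olig1* (128), *Tal1* (122), *Atoh1* (116), *Atoh8* (111) and *Hand2* (103). The weakest were those of *Heyl* (11.7) and *Nhlh1* (15.8). The *Ptf1a* peak was at percentile 99.4 of all protein-coding promoters with a WT SUZ12 peak and the *Heyl* peak at percentile 6.97. Values of -log10 p depend on the depth of each library and are not compared between lines.

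SUZ12 peaks remained at some of the members in every mutant. A SUZ12 peak was listed for 13 members in *Ezh2* KO (40.6%, beside 3.98% of protein-coding genes), for 8 in *Ezh1/2* dKO (25.0%, beside 0.943%), for 18 in *Ezh2* Y726D (56.2%, beside 9.54%) and for 21 in *Ezh2* R685C (65.6%, beside 7.92%). No member had a SUZ12 peak in a mutant without having one in WT. Of the 25 members bound by SUZ12 in WT, 13 kept a peak in *Ezh2* KO. The same held for 890 of the 3041 protein-coding genes bound in WT. These counts were 8 and 211 in *Ezh1/2* dKO, 18 and 1838 in *Ezh2* Y726D and 21 and 1713 in *Ezh2* R685C. As a ratio, the excess of the members was smaller here than beside all protein-coding genes. The 8 in *Ezh1/2* dKO were *Neurog1*, *Atoh8*, *Olig1*, *Bhlhe23*, *Hes5*, *Ptf1a*, *Tal1* and *Hand2*, and these 8 had a SUZ12 peak in all 5 lines, beside 0.872% of protein-coding genes. Their peaks in *Ezh1/2* dKO were weak (-log10 p from 10.2 to 17.1) and none passed a p of 1e-20. At *Neurog1* the strongest SUZ12 peak spanned 2209 bp in WT and 2967 bp in *Ezh2* R685C. The listed width was 1449 bp in *Ezh2* KO, 1377 bp in *Ezh2* Y726D and 247 bp in *Ezh1/2* dKO.

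The members that kept a listed SUZ12 peak had, at the median, stronger WT peaks. In *Ezh1/2* dKO the 8 that kept a peak had a median WT -log10 p of 117 (65.5 to 154) and the 17 that did not had 33.9 (11.7 to 116), so the ranges overlapped, with *Atoh1*, *Nhlh2*, *Bhlhe22* and *Olig3* among the stronger WT peaks not found there. In *Ezh2* KO the medians were 103 for the 13 with a peak and 25.8 for the 12 without. In *Ezh2* Y726D they were 82.2 for 18 and 33.9 for 7, and in *Ezh2* R685C 74.1 for 21 and 18.8 for 4. A peak near the threshold in WT is more easily missed in another list, so these medians are a description.

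**Figure D3:**
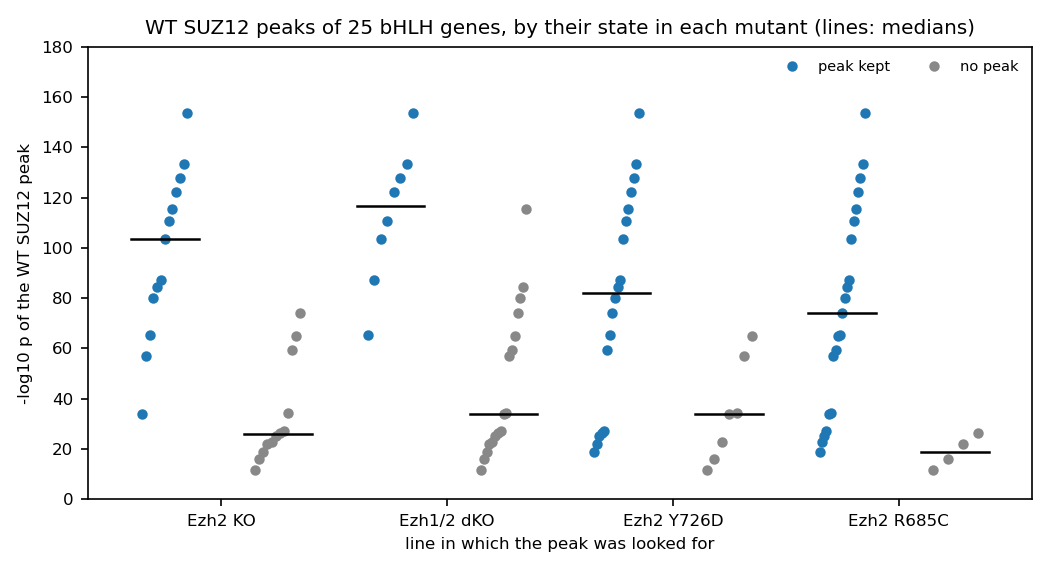
The -log10 p of the WT SUZ12 peak (y axis) for the 25 bHLH genes that had one, divided in each mutant (x axis) into genes with a SUZ12 peak (blue) and without (grey), with lines at the medians. The blue medians lie between 74.1 and 117 and the grey ones between 18.8 and 33.9.

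H3K27me3 peaks had another pattern over the lines. In *Ezh2* KO 26 members had one (81.2%, beside 13.8% of protein-coding genes) and in *Ezh2* R685C 28 (87.5%, beside 22.8%). Counts of listed peaks do not measure the amount of the mark. The paper reports a global loss of H3K27me3 in *Ezh2* KO by western blot. By ChIP-seq it reports that most of the H3K27me3 sites of WT remained, with deposition confined to SUZ12 peaks. The strongest member peak had a -log10 p of 31.5 in WT and 532 in *Ezh2* KO. These values depend on depth and do not compare the amount of the mark between the lines. In *Ezh1/2* dKO and *Ezh2* Y726D no member had one, beside 0.0849% and 0.885% of protein-coding genes. Of the 25 members with H3K27me3 in WT, 24 had it in *Ezh2* KO and 24 in *Ezh2* R685C, and the exception was *Msc* in both lines. Of the 3937 protein-coding genes with H3K27me3 in WT, 2765 had it in *Ezh2* KO and 3591 in *Ezh2* R685C. *Neurod1* and *Neurod6* had a peak in *Ezh2* KO and *Ezh2* R685C but none in WT. Thus 12 members, among them *Olig3*, *Neurog3*, *Hes6*, *Hey1*, *Lyl1*, *Hand1* and *Myod1*, had lost the listed SUZ12 peak in *Ezh2* KO, and of these 12 *Msc* and *Nhlh1* had no H3K27me3 peak there.

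**Figure D4:**
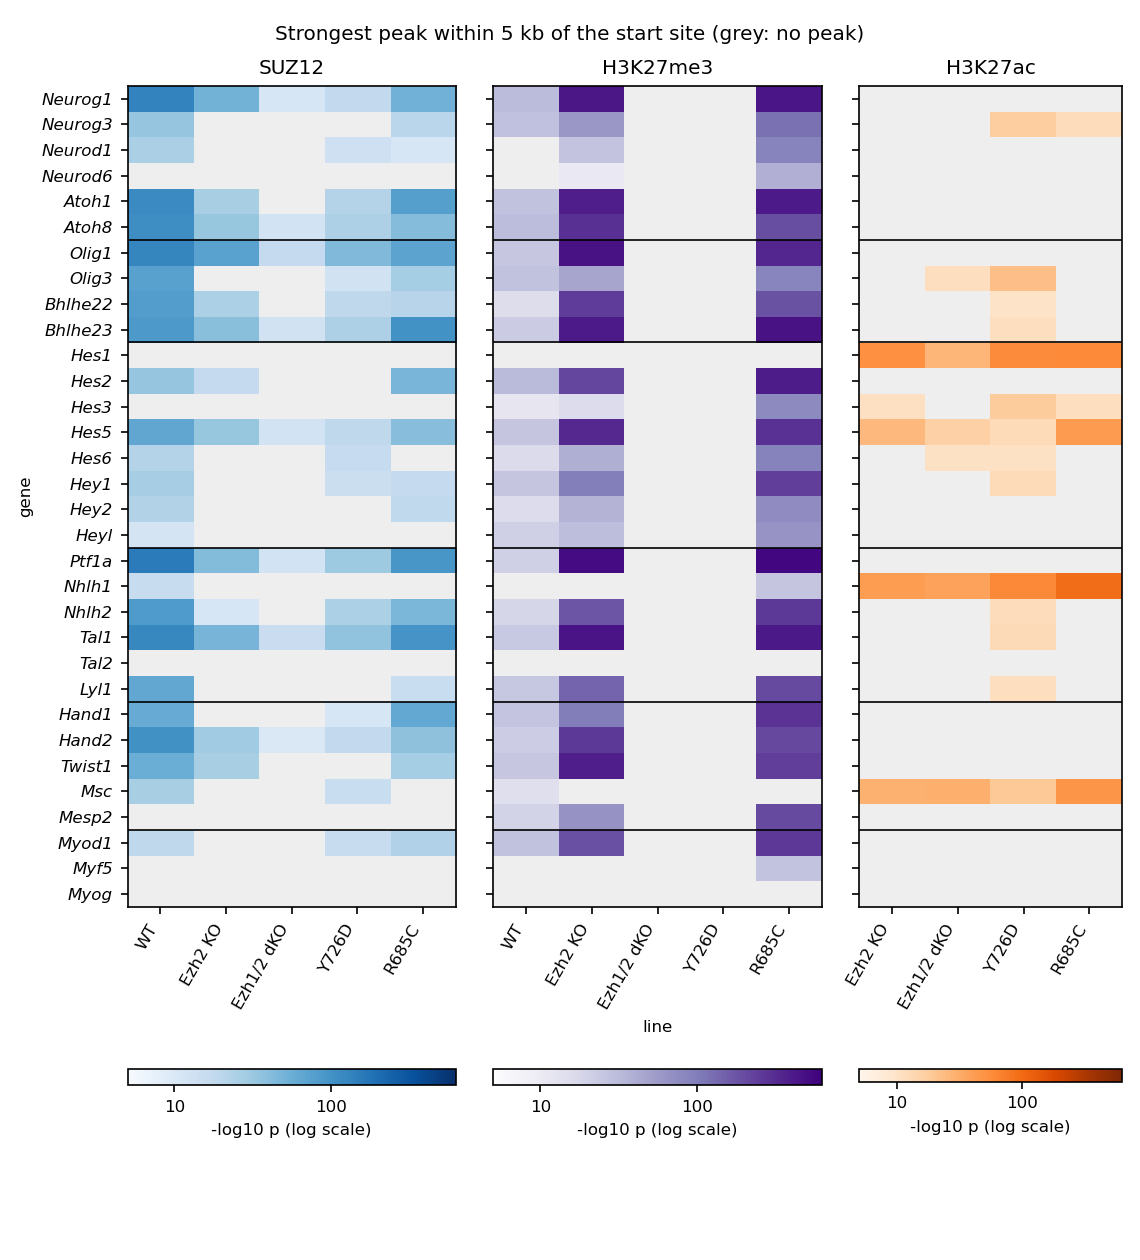
Strongest SUZ12, H3K27me3 and H3K27ac peak within 5 kb of the start site (colour, -log10 p on a log scale, grey where no peak was listed) of the 32 bHLH genes (rows, by role) in each line (columns, 1 library each). The H3K27me3 columns of *Ezh1/2* dKO and *Ezh2* Y726D are grey throughout, and H3K27ac is present in all 4 mutants at *Hes1*, *Hes5*, *Nhlh1* and *Msc*.

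H3K27me2, listed as broad regions of low significance, was more common at the members than at protein-coding genes in general in *Ezh2* KO. The paper reports H3K27me2 accumulation at Polycomb-bound promoters in these cells. The members were not compared with other such promoters. Regions of H3K27me2 covered a median of 86.5% of the 10 kb around the member start sites in *Ezh2* KO, while the median over protein-coding genes was 0. A region with a -log10 p of at least 5 was found at 23 of 32 members there (71.9%), beside 8.96% of protein-coding genes, with values up to 10.1 at *Hes2*, 9.6 at *Hes5* and 9.4 at *Hes3*. In *Ezh1/2* dKO and *Ezh2* Y726D the median coverage was 15.5% and 20.7%, beside 12.9% and 14.7% over protein-coding genes, and no member reached 5. In WT the median over the 30 members on listed chromosomes was 0, beside 11.9%.

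HA-tagged human EZH1, expressed from a transfected vector in *Ezh1/2* dKO cells, had a peak at 19 members (59.4%), beside 9.92% of protein-coding genes. All 19 had a WT SUZ12 peak. Among genes with a WT SUZ12 peak, 19 of the 25 members and 1785 of the 3041 protein-coding genes had an HA-EZH1 peak. The 6 members with a WT SUZ12 peak but no HA-EZH1 peak were *Neurog3*, *Neurod1*, *Hes6*, *Heyl*, *Nhlh1* and *Msc*. In *Ezh1/2* dKO cells without the tagged protein the HA list had a peak at 1 member, *Hey1*, beside 2.28% of protein-coding genes, so *Hey1* had a peak with and without the tagged protein.

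H3K27ac was less common at these promoters than at promoters in general in 3 of the 4 mutants. Genes with a WT SUZ12 peak shared this. Of these genes, 3 of the 25 members and 353 of the 3041 protein-coding genes had H3K27ac in *Ezh2* KO. The counts were 5 and 503 in *Ezh1/2* dKO, 4 and 535 in *Ezh2* R685C and 12 and 1262 in *Ezh2* Y726D. The shares that follow are over all 32 members and all protein-coding genes. A peak was listed for 5 members in *Ezh2* KO (15.6%, beside 35.4% of protein-coding genes), for 6 in *Ezh1/2* dKO (18.8%, beside 26.4%), for 6 in *Ezh2* R685C (18.8%, beside 43.6%) and for 14 in *Ezh2* Y726D (43.8%, beside 44.3%). The lists held 25483, 17618, 41185 and 40829 peaks in this order. With lists cut to equal length the counts were 4, 6, 4 and 6, and at a p of at most 1e-20 they were 4, 3, 4 and 3, so the higher count in *Ezh2* Y726D rested on its weaker peaks. *Hes1*, *Hes5*, *Nhlh1* and *Msc* had a peak in all 4 mutants (12.5%, beside 23.1% of protein-coding genes). No WT list was used, so H3K27ac already present in WT and H3K27ac gained in a mutant cannot be told apart. For *Msc* the peak covered the start site in each. For *Hes5* the nearest peak was 3.0 to 3.21 kb downstream, in a window that also holds the start site of *Pank4*, and for *Nhlh1* it was 0.87 to 2.86 kb upstream. A further 18 members had no H3K27ac peak in any mutant (56.2%, beside 48.5% of protein-coding genes), *Neurog1* and *Atoh1* among them.

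**Figure D5:**
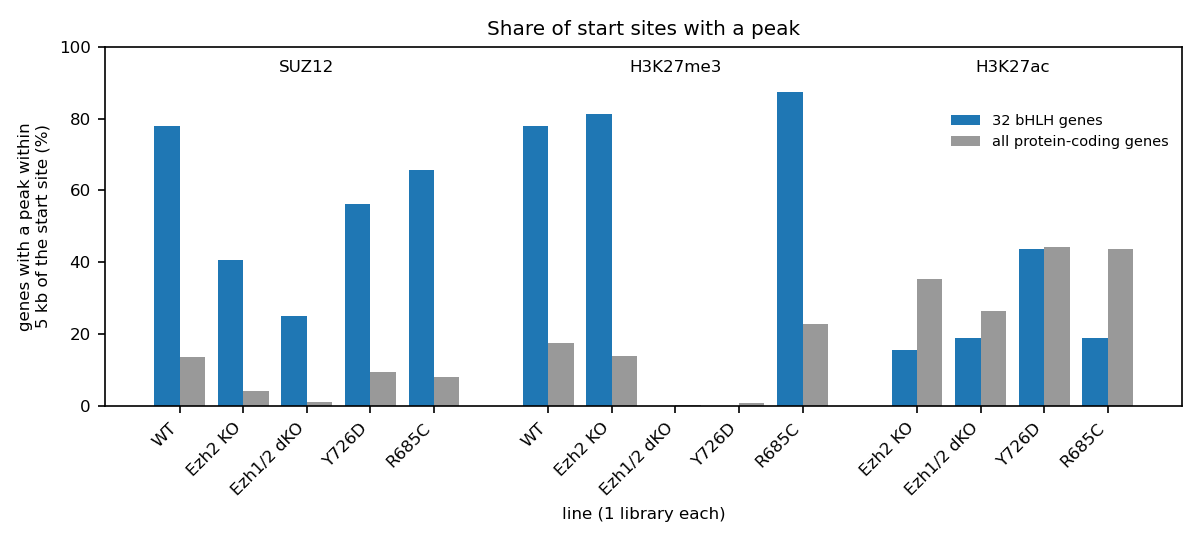
Percent of the 32 bHLH genes (blue) and of all protein-coding genes (grey) with a SUZ12, H3K27me3 or H3K27ac peak within 5 kb of the start site (y axis), by line (x axis, 1 library each). The blue bars exceed the grey ones for SUZ12 in all 5 lines, and for H3K27ac the pair is level at 43.8% and 44.3% in *Ezh2* Y726D.

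In the lines without *Ezh1* and without H3K27me3 peaks, 9 members had an H3K27ac peak that was not listed in *Ezh2* KO (28.1%, beside 12.2% of protein-coding genes). The *Ezh2* Y726D list was the longer one, as given above. All 9 were bound by SUZ12 in WT, and other genes bound in WT shared the higher count in *Ezh2* Y726D. Of 3041 such genes, 353 had H3K27ac in *Ezh2* KO and 1262 in *Ezh2* Y726D, beside 3 and 12 of the 25 members. All 9 had the H3K27ac peak in *Ezh2* Y726D (*Neurog3*, *Olig3*, *Bhlhe22*, *Bhlhe23*, *Hes6*, *Hey1*, *Nhlh2*, *Tal1* and *Lyl1*). Only *Olig3* and *Hes6* had it in *Ezh1/2* dKO too (6.25%, beside 2.39% of protein-coding genes), and *Neurog3* had one in *Ezh2* R685C. These peaks were weak: in *Ezh2* Y726D their -log10 p ran from 10.1 at *Bhlhe22* to 22.5 at *Olig3*. *Olig3* had the peak 0.21 kb downstream of its start site in *Ezh2* Y726D and 0.37 kb in *Ezh1/2* dKO. The peaks of *Tal1*, *Bhlhe22*, *Hey1* and *Hes6* lay within 1 kb of the start site, those of *Neurog3* and *Nhlh2* 1.93 and 2.40 kb downstream, that of *Lyl1* 3.70 kb downstream and that of *Bhlhe23* 4.23 kb upstream. *Hes3* had one in *Ezh2* KO, *Ezh2* Y726D and *Ezh2* R685C and none in *Ezh1/2* dKO. At *Olig3*, *Bhlhe22*, *Bhlhe23*, *Hes5*, *Hes6*, *Hey1*, *Nhlh2*, *Tal1* and *Msc*, SUZ12 and H3K27ac peaks were both listed in *Ezh2* Y726D.

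Set side by side, the 5 members called higher in *Ezh1/2* dKO had unlike chromatin. *Olig3* had H3K27ac in *Ezh1/2* dKO and *Ezh2* Y726D and mRNA called higher in both. *Hey1* had H3K27ac in *Ezh2* Y726D alone and mRNA called higher in both. *Neurog1* kept a SUZ12 peak in *Ezh1/2* dKO, *Atoh1* did not, and neither had an H3K27ac peak in any mutant. *Msc* had H3K27ac in every mutant and H3K27me3 in WT alone. Of the 9 members with H3K27ac in *Ezh2* Y726D but not in *Ezh2* KO, *Olig3* and *Hey1* were called higher in *Ezh2* Y726D than in WT, *Neurog3* and *Hes6* were tested and not called, and the other 5 were under the level for testing. No test was made of a relation between peaks and mRNA.

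The partners of these factors were mostly not called. Of the 7 E protein and Id protein genes (*Tcf3*, *Tcf4*, *Tcf12*, *Id1*, *Id2*, *Id3* and *Id4*), all tested, *Tcf4* was called lower in *Ezh2* Y726D than in WT and no other was called in any of the 6 comparisons. The 7 summed to 1674 to 2320 normalized counts in WT, 1191 to 1560 in *Ezh2* KO, 1492 to 1838 in *Ezh1/2* dKO and 1273 to 1776 in *Ezh2* Y726D, and their median log2 change from WT was -0.47 in *Ezh2* KO, whose libraries lay below both of WT in sum. The 2 WT libraries were far apart for *Id1* (316 and 51.0), *Id2* (296 and 34.7) and *Id3* (791 and 233). For each of these genes *Ezh2* KO overlapped WT. *Tcf4* encodes an E protein that pairs with proneural factors, and it had 548 and 922 normalized counts in WT, 441 and 594 in *Ezh2* KO, 459 and 357 in *Ezh1/2* dKO and 368 and 305 in *Ezh2* Y726D. The difference between *Ezh2* Y726D and WT was -1.08 (SE 0.26, adjusted p = 0.0834 by limma).

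Of 27 Notch pathway genes, 25 were tested, and between *Ezh1/2* dKO and WT and between *Ezh2* Y726D and WT the same 2 were called, 1 higher and 1 lower. *Mfng*, a fringe glycosyltransferase of the Notch receptor, had 32.0 and 16.4 normalized counts in WT, 46.0 and 25.2 in *Ezh2* KO, 91.5 and 79.9 in *Ezh1/2* dKO and 94.5 and 145 in *Ezh2* Y726D. It was higher than in WT by 1.85 (adjusted p = 0.0624 by limma) in *Ezh1/2* dKO and by 2.30 (adjusted p = 0.0415) in *Ezh2* Y726D. *Maml2*, a Notch coactivator, had 153 and 131 in WT, 4.18 and 2.90 in *Ezh2* KO, 19 and 9.77 in *Ezh1/2* dKO and 8.02 and 2.24 in *Ezh2* Y726D. All 6 mutant libraries were far below WT, with differences of -4.99 in *Ezh2* KO (adjusted p = 0.0128 by limma), -4.72 in *Ezh2* Y726D (adjusted p = 0.0113) and -3.28 in *Ezh1/2* dKO (adjusted p = 0.0308). Against *Ezh2* KO, *Lfng*, another fringe enzyme with 0 and 0 there and 14 and 11.5 in *Ezh1/2* dKO, was called higher in *Ezh1/2* dKO, and *Mfng* in *Ezh2* Y726D (1.75, adjusted p = 0.0827).

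Marker lists of trophectoderm, endoderm, fibroblasts and mesoderm summed higher in *Ezh1/2* dKO and *Ezh2* Y726D than in WT, and the neural list did not. The part of these lists in the results above was not tested. Values are sums of normalized counts per library, as the lowest and highest of a line. Trophectoderm markers summed to 365 to 487 normalized counts in WT, 532 to 632 in *Ezh2* KO, 839 to 1038 in *Ezh1/2* dKO and 709 to 1332 in *Ezh2* Y726D. Of 6 tested genes, 3 (*Krt8*, *Krt18*, *Gata3*) were called higher than in WT in both of the latter. In *Ezh2* Y726D *Cdx2* had 33.0 in replicate 1 and 440 in replicate 2, the library with the higher sum. Endoderm markers summed to 24 to 39.5 in WT, 13.6 to 37.7 in *Ezh2* KO, 162 to 199 in *Ezh1/2* dKO and 70.5 to 91.8 in *Ezh2* Y726D, with 2 of 6 (*Gata4*, *Dab2*) called higher in *Ezh1/2* dKO. Fibroblast markers summed to 4.81 to 12 in WT, 14.5 to 16.7 in *Ezh2* KO and 86.1 to 116 in *Ezh1/2* dKO and *Ezh2* Y726D. Most of the sum in the latter 2 lines came from *Thy1*, at 88.2 and 101 in *Ezh1/2* dKO and 84.7 and 76.1 in *Ezh2* Y726D. It was the 1 gene of that list tested and was called higher than in WT in both. *Col1a1* and *Col1a2* were at or below 11.5 in every library, with no *Col1a2* read in WT. *Lum* and *Dcn* had no read in WT or *Ezh2* Y726D. The sum therefore says little about the other fibroblast markers. Mesoderm markers summed to 80.0 to 88.6 in WT, 54.4 to 68.7 in *Ezh2* KO, below both WT libraries, 115 to 158 in *Ezh1/2* dKO and 115 to 310 in *Ezh2* Y726D, with *Meox1* alone called against WT, in *Ezh2* Y726D, and *Kdr* called higher in *Ezh2* Y726D than in *Ezh2* KO. Of the 12 neural markers among the RNA-seq genes, 7 were tested. None was called against WT in any line, and *Nes* was called higher in *Ezh1/2* dKO than in *Ezh2* KO. The neural markers summed to 1971 to 3142 in WT, 2024 to 2276 in *Ezh2* KO, 2174 to 2414 in *Ezh1/2* dKO and 1736 to 1824 in *Ezh2* Y726D. Most of this sum came from *Stmn2* and *Tubb3*, at 1750 and 1235 in WT replicate 1, so it says little about the low markers.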

How the data were processed

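RNA-seq libraries were made by SMART-seq2 and, per the authors' methods, aligned with TopHat and counted over genes without strand with HTSeq-count. The deposited table holds normalized counts, a signal that the authors obtained by dividing read counts by DESeq2 size factors. Every value (100%, within 0.001 of a read) was a whole multiple of the value of 1 read in its library, so reads were recovered for count tests. ChIP-seq reads were aligned with Bowtie to mm9, duplicates were removed with PICARD and peaks were called by the authors with MACS2, each list from 1 library. The deposited lists give positions, the −log10 p and, as a ratio, the fold enrichment of each peak, and the HA lists give positions without these values. Tool versions of these steps are not printed here. Deposited tables of the authors' own comparisons hold their fold changes and p-values and were not used.

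The members and gene lists were chosen with earlier results of these data known. log2(normalized count + 1) of genes with a mean of at least 5 was fitted with limma 3.58.1 in R 4.3.3 over all 8 libraries with line as the factor, with Benjamini-Hochberg adjustment over all genes tested. edgeR 4.0.16 and DESeq2 1.42.0 on the recovered reads, other filters, scalings, thresholds and pseudocounts, a replicate block and leaving out each library were alternatives. The test was checked on simulated data. Libraries of the same number did not deviate together (correlations of deviations between -0.41 and 0.29 over 6 pairs of lines), so the numbers were not taken to pair samples. Peaks with p up to 1e-10 that shared at least 1 bp with 5 kb on either side of the start site in the mm9 annotation (GENCODE) were counted, beside the same share over protein-coding genes. Promoter sequences were taken from RefSeq for the 22 of 32 members with an entry, and each matched mm9 once. Read ratios carry exact 95% intervals, and these and the floor of 3 reads cover counting error only.

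Values in every library are given for members called in any comparison, for the member of each group with the highest mean and for members with an unadjusted p under 0.05 in at least 2 comparisons with WT. For peaks, members were named for a SUZ12 peak in *Ezh1/2* dKO, for lacking one in WT, or for H3K27ac in *Ezh1/2* dKO or *Ezh2* Y726D but not in *Ezh2* KO. Other members were named after their values were seen. ATAC-seq regions were listed near almost every start site at low significance and were not used in a comparison.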

Additional observations from a re-analysis of the deposited data

Results flagged for a closer look

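These differences between the changes of 2 mutant lines from WT passed the limma test made directly between the mutants. The log2 difference between *Ezh1/2* dKO and *Ezh2* KO was 4.24 for *Neurog1*, 4.15 for *Atoh1* and 3.25 for *Olig3*. Between *Ezh2* Y726D and *Ezh2* KO it was 2.14 for *Neurod1*, 3.61 for *Olig3*, 1.81 for *Hey1* and 2.1 for *Mesp2*. Between *Ezh2* Y726D and *Ezh1/2* dKO it was -1.28 for *Msc*. With 2 libraries per line, no group was large enough to look for a single outlying library.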

How the results depend on the processing

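Leaving out each library in turn gave 0 to 3 members called between *Ezh1/2* dKO and *Ezh2* KO, 0 to 4 between *Ezh1/2* dKO and WT, 0 to 0 between *Ezh2* KO and WT, 0 to 1 between *Ezh2* Y726D and *Ezh1/2* dKO, 0 to 4 between *Ezh2* Y726D and *Ezh2* KO and 1 to 2 between *Ezh2* Y726D and WT. A line left with 1 library was assumed to vary like the others. Between *Ezh1/2* dKO and *Ezh2* KO (3 as reported), 5 were called with a pseudocount of 5, 6 with no filter, 0 at a mean of at least 20 or with quantile normalization, and 6 from the 4 libraries compared. Between *Ezh1/2* dKO and WT (5), 2 were called at a mean of at least 20, where 5 members were tested, and 3 with quantile normalization or an adjusted p under 0.05. Between *Ezh2* Y726D and WT (2), 1 was called with no filter, at a mean of at least 20 or an adjusted p under 0.05, and 0 from the 4 libraries compared. Between *Ezh2* Y726D and *Ezh2* KO (4), 0 were called at a mean of at least 20, 2 with quantile normalization, DESeq2 or an adjusted p under 0.05, and 1 from the 4 libraries compared. Between *Ezh2* Y726D and *Ezh1/2* dKO (1), 3 were called with a pseudocount of 5, 2 by edgeR or DESeq2 and 0 at an adjusted p under 0.05. Between *Ezh2* KO and WT (0), DESeq2 called 1. The replicate block gave 3, 5, 0, 1, 3 and 2 members in the order of the first sentence, so that 1 call (*Neurod1*) was lost. The cause of these changes was not tested. No member's called difference was reversed: of 230 alternative values, 162 kept their call and 68 did not.

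Over all genes tested, leaving out each library gave 6 to 135 genes called between *Ezh2* KO and WT, 3 to 572 between *Ezh1/2* dKO and WT, 220 to 546 between *Ezh2* Y726D and WT, 53 to 240 between *Ezh1/2* dKO and *Ezh2* KO, 98 to 962 between *Ezh2* Y726D and *Ezh2* KO and 14 to 514 between *Ezh2* Y726D and *Ezh1/2* dKO. Counts differed by more than 1.5 times from those reported in these other settings. Between *Ezh2* KO and WT (56), DESeq2 called 149, edgeR 30, the 4 libraries compared 28, and no filter 35, with 34 under quantile normalization and 34 with the replicate block. Between *Ezh1/2* dKO and *Ezh2* KO (496), 1181 were called from the 4 libraries, 258 at a mean of at least 20 and 176 with quantile normalization. From the 4 libraries, 32 were called between *Ezh2* Y726D and WT (377), 228 between *Ezh2* Y726D and *Ezh2* KO (489) and 150 between *Ezh2* Y726D and *Ezh1/2* dKO (233). An adjusted p under 0.05 gave 285 between *Ezh1/2* dKO and WT (557), 200 between *Ezh2* Y726D and WT, 299 between *Ezh1/2* dKO and *Ezh2* KO, 266 between *Ezh2* Y726D and *Ezh2* KO, 103 between *Ezh2* Y726D and *Ezh1/2* dKO and 31 between *Ezh2* KO and WT. Quantile normalization moved the split between *Ezh1/2* dKO and WT from 503 higher and 54 lower to 290 and 129, and that between *Ezh2* Y726D and *Ezh1/2* dKO from 26 and 207 to 50 and 168.

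For peaks, lists cut to equal length left 15 members with SUZ12 in WT and 6 with H3K27ac in *Ezh2* Y726D. A p of at most 1e-20 left 0 with SUZ12 in *Ezh1/2* dKO and 7 in *Ezh2* Y726D, and with H3K27ac 3 in *Ezh1/2* dKO and 3 in *Ezh2* Y726D. Within 1 kb of the start site, H3K27ac was found at 2 members in *Ezh2* KO, 8 in *Ezh2* Y726D and 3 in *Ezh2* R685C. Low read counts left 22 of the 32 members outside the test. With no filter, 4 of these 22 were called: *Hand2* and *Nhlh1* higher in *Ezh1/2* dKO than in WT, *Hand2*, *Bhlhe22* and *Bhlhe23* higher in *Ezh1/2* dKO than in *Ezh2* KO, and *Bhlhe23* higher in *Ezh2* Y726D than in *Ezh2* KO. The RNA results rest on 2 libraries per line and the peak counts on 1.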

Other observations

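The 12 listed genes outside the RNA-seq table included strongly Polycomb-marked ones. In WT 7 of them had a SUZ12 peak within 5 kb of the start site and 8 an H3K27me3 peak, and SUZ12 remained listed at 4 in *Ezh2* KO, 2 in *Ezh1/2* dKO, 6 in *Ezh2* Y726D and 7 in *Ezh2* R685C. *Neurod2*, a neuronal differentiation factor, had a SUZ12 peak in all 5 lines, with a -log10 p of 147 in WT and 21.7 in *Ezh1/2* dKO. *Twist2*, a mesenchymal and skin factor, also had one in all 5, at 50.2 in WT and 10.8 in *Ezh1/2* dKO. Such values depend on the depth of each library and are not compared between lines. *Neurog2* and *Olig2*, at 144 and 127 in WT, had none in *Ezh1/2* dKO. *Atoh7*, a retinal ganglion cell factor, was the one listed gene with an H3K27me3 peak in *Ezh2* Y726D (-log10 p of 23). *Olig2* in *Ezh2* Y726D (12.6) was the one of the 12 with an H3K27ac peak in any mutant. *Neurod4* and *Scx* had no peak of SUZ12, H3K27me3 or H3K27ac in any line.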
